A study of Mus musculus with 2 samples.

Results

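Lipid-associated macrophages are a state of adipose-tissue macrophages (ATM) that gathers around dying, lipid-laden adipocytes in obesity. The 8 genes examined here mark this state and are Trem2, Tyrobp, Gpnmb, Spp1, Lgals3, Lpl, Fabp4 and Fabp5. They were picked by name as known genes of the state, with earlier results of these data known, and all 8 were found among the 20330 genes of the deposited table. ATM were sorted by flow cytometry for F4/80 and CD11b from the visceral fat of C57BL/6 mice after 12 weeks of high-fat diet. The library labelled WT came from hMRP8cre-;Hif-1αfl/fl;ApoE-/- mice and the library labelled KO from hMRP8cre+;Hif-1αfl/fl;ApoE-/- mice. Both genotypes therefore lacked ApoE and carried loxP-flanked Hif-1α alleles, and only the KO mice had Cre under the promoter of human MRP8 (S100A8), which is active in myeloid progenitors, monocytes and neutrophils as well as in cells that become ATM. There was 1 library per genotype, the labels do not give the age or sex of the mice, and they do not say whether a library was made from 1 mouse or from several. The differences below have no replicate check, and p-values are not given.

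TREM2 is a surface receptor for lipids, lipoproteins and cell debris. It has no signalling tail of its own and signals through the adaptor DAP12, the product of Tyrobp, which recruits the kinase SYK. In obese fat this receptor is needed for macrophages to take up the program of lipid uptake, lysosomal breakdown and lipid storage to which the other genes belong.

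The KO library held less mRNA of most of these genes. Of the 8 genes, 6 were lower in KO than in WT, and for 2 of them, Spp1 and Fabp5, the difference passed 3-fold. Tyrobp and Fabp4 were at nearly the same level in both libraries. The median change over the 8 genes was -0.96 on the scale of log2(FPKM + 1), KO minus WT, against 0.03 over all 10297 genes that reached 1 FPKM in at least 1 library. FPKM counts sequenced fragments per kilobase of transcript, scaled to the number of mapped fragments in the library. In this comparison of sorted but mixed cells, fewer cells of the lipid-associated state and less mRNA per cell cannot be told apart.

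The count has to be read against how often any gene moved this far. At 3-fold, 13.7% of all genes tested were lower in KO and 13.6% were higher, while 2 of the 8 genes were lower and 0 were higher. At 2-fold, 22.5% of all genes were lower and 23.1% higher, and the 8 genes gave 4 lower, Spp1, Fabp5, Gpnmb and Lpl, and 0 higher. Any change below 0 was seen in 48.7% of all genes and in 6 of the 8. Most genes past these thresholds were weakly expressed, whereas the 8 genes were not. Among the 2378 genes with a mean of 20 to 100 FPKM, 5.72% were 3-fold lower in KO and 4.08% 3-fold higher. Among the 653 genes at 100 to 1000 FPKM these shares were 1.38% and 0.613%.

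**Figure D1:**
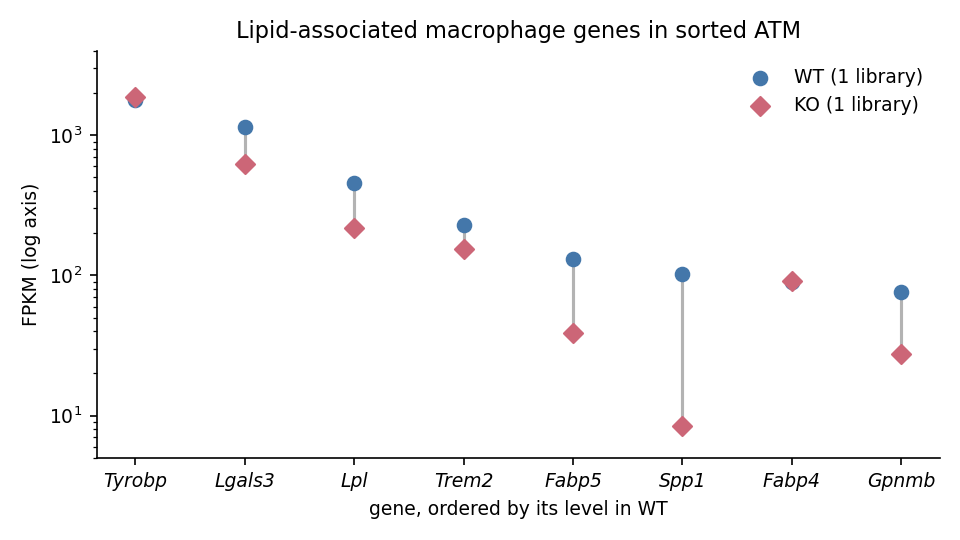
FPKM of each of the 8 genes in the WT library (circles) and the KO library (diamonds), on a log axis, with genes ordered by their WT level; each symbol is 1 library. Spp1 has the longest gap, from 103 to 8.41 FPKM, while the symbols of Tyrobp and Fabp4 overlap.

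The receptor and its adaptor differed in level and in change. Trem2 (ENSMUSG00000023992, chromosome 17 of GRCm38, 48346401 to 48354147) was at 228 FPKM in WT against 155 FPKM in KO. This was a change of -0.55, which did not pass 2-fold. Of the 653 genes at 100 to 1000 FPKM, 13.5% had a change at least as low. Tyrobp (ENSMUSG00000030579, chromosome 7, 30413760 to 30417585) was the highest of the 8 genes, at 1792 FPKM in WT against 1858 FPKM in KO, with a change of 0.05. It ranked 41 among all genes in WT and 37 in KO, against ranks of 357 and 499 for Trem2. The level of Tyrobp was 7.87 times that of Trem2 in WT and 12.0 times in KO. A ratio within a library does not depend on how the library was scaled, and DAP12 serves many other myeloid receptors.

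The genes of lysosomal and secreted proteins were all lower in KO, to unequal extents. Spp1 (ENSMUSG00000029304, chromosome 5, 104435118 to 104441050) encodes osteopontin, a secreted phosphoprotein that binds integrins and CD44. It was at 103 FPKM in WT against 8.41 FPKM in KO, 12.2-fold lower, with a change of -3.46. Of the 7586 genes that reached 1 FPKM in both libraries, 21 had a larger fall. In the class of 20 to 100 FPKM, to which the mean of Spp1 belongs, 28 of 2378 genes (1.18%) had a change at least as low. Spp1 went from the sixth of the 8 genes by level in WT to the last in KO.

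Gpnmb (ENSMUSG00000029816, chromosome 6, 49036546 to 49070929) encodes a glycoprotein of lysosomal and cell membranes that macrophages under lysosomal stress make in large amounts. It was at 76.4 FPKM in WT against 27.7 FPKM in KO, a change of -1.43 that passed 2-fold but not 3-fold. In the same class, 6.69% of genes had a change at least as low. Lgals3 (ENSMUSG00000050335, chromosome 14, 47367751 to 47386160) encodes galectin-3, a lectin that binds damaged lysosomes and is abundant in most macrophages. It was the second highest of the 8 genes, at 1135 FPKM in WT against 620 FPKM in KO. Its change of -0.87 did not pass 2-fold, and 6.43% of the 653 genes at 100 to 1000 FPKM were at least as low. The level of Lgals3 was 11.0 times that of Spp1 in WT and 73.7 times in KO.

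The lipid-handling genes did not move as a group. Lpl (ENSMUSG00000015568, chromosome 8, 68880491 to 68907448) encodes lipoprotein lipase, which frees fatty acids from the triglyceride of lipoproteins. It was at 457 FPKM in WT against 219 FPKM in KO, a change of -1.06, and 4.44% of genes at 100 to 1000 FPKM were at least as low. Fabp4 and Fabp5 encode carriers that bind fatty acids in the cytosol, and they lie on the same chromosome, 187480 bp apart. Fabp5 (ENSMUSG00000027533, chromosome 3, 10012548 to 10016607) fell from 130 FPKM in WT to 39.0 FPKM in KO, a change of -1.71, and in the class of 20 to 100 FPKM 4.71% of genes were at least as low. Fabp4 (ENSMUSG00000062515, chromosome 3, 10204088 to 10208576), the form that adipocytes also make in abundance, was at 90.1 FPKM in WT against 91.4 FPKM in KO, a change of 0.02.

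The balance of the carriers thus differed between the libraries. Fabp5 was at 1.45 times the level of Fabp4 in WT and at 0.427 times in KO. The order of the 8 genes by level was Tyrobp, Lgals3, Lpl, Trem2, Fabp5, Spp1, Fabp4 and Gpnmb in WT. In KO the first 4 kept their order, followed by Fabp4, Fabp5, Gpnmb and Spp1. With 1 library each, no spread is known for these levels, and it cannot be said which neighbours in the order differ beyond it. Together the 8 genes made up 0.685% of all FPKM of the WT library and 0.531% of the KO library. Without Tyrobp their sum was 2219 FPKM in WT against 1160 in KO.

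Depth was not low for these genes. The smallest recurring value of FPKM times length was taken as 1 fragment, which put the WT library at some 5900000 fragments and the KO library at 7470000. The thinnest value, that of Spp1 in KO, rested on an estimated 89 fragments, against 856 in WT. Fabp5 rested on 760 and 288, Gpnmb on 1382 and 635, Trem2 on 1441 and 1239, and the other 4 genes on 477 or more. These are estimates from GENCODE M21 transcript lengths, and they describe counting only, since PCR copies are not separate molecules.

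**Figure D2:**
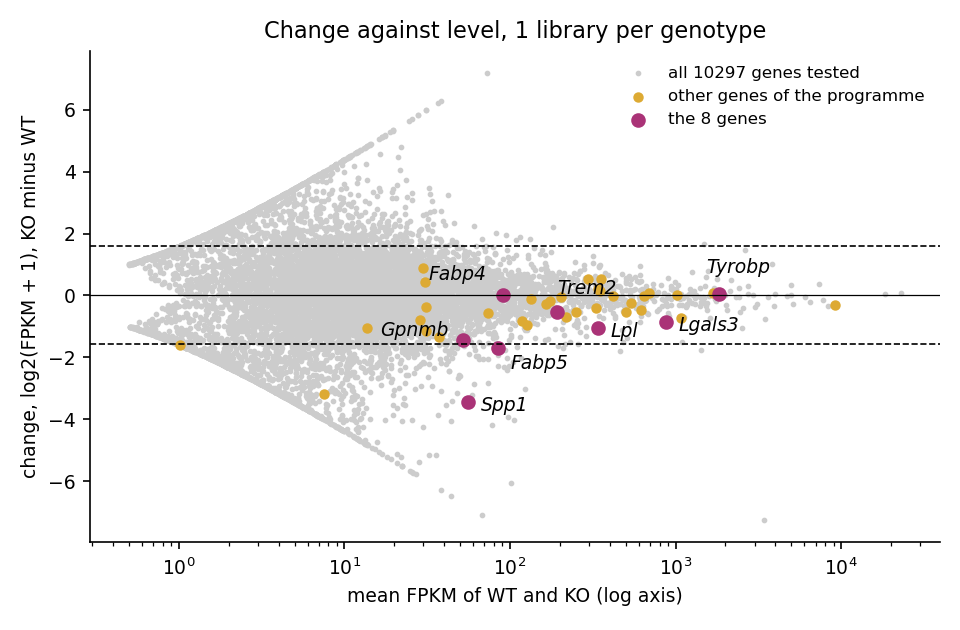
Change in log2(FPKM + 1), KO minus WT (vertical axis), against the mean FPKM of both libraries (horizontal log axis); grey points are all 10297 genes tested, yellow points other genes of the lipid-associated program and purple points the 8 genes, with dashed lines at 3-fold. Spp1 at -3.46 and Fabp5 at -1.71 lie below the lower line, and Gpnmb at -1.43 just above it.

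The 250 bases before a RefSeq transcript start are printed here as description only. They are given for the genes that were lower in KO and have a promoter in the RefSeq table used (GRCm38.p6). Whether these promoters bear on the changes was not tested. The table held promoters for 4 of the 8 genes. All lie on the plus strand and are written 5′ to 3′, and for Spp1, which has 2 starts there, the upstream one is shown. The RefSeq starts of Spp1 (104435111), Gpnmb (49036518) and Lgals3 (47373860) differ from the GENCODE gene starts given above, and that of Lgals3 lies inside the GENCODE gene. Capitals mark matches, on either strand, to ACGTG or its variant GCGTG (the core bound by HIF), to the E-box CACGTG, which contains the first of these, to TGANTCA (AP-1) and to GAGGAA (PU.1, the lineage factor of macrophages).
Spp1, chr5:104434861-104435110: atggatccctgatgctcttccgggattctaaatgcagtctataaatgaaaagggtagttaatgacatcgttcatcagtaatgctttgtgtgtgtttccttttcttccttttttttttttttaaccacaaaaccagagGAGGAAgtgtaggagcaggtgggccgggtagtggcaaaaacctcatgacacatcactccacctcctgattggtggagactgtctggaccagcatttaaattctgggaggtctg
Gpnmb, chr6:49036268-49036517: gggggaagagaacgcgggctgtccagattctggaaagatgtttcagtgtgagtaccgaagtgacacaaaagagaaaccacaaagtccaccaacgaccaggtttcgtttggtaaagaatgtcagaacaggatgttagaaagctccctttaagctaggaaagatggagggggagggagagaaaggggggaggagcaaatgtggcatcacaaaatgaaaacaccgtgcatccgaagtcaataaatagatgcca
Lgals3, chr14:47373610-47373859: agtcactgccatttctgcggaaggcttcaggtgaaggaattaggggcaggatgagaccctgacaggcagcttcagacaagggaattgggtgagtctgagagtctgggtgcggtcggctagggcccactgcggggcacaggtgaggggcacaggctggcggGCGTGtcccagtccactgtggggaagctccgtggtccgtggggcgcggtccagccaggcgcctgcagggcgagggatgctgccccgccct
Trem2, chr17:48346151-48346400: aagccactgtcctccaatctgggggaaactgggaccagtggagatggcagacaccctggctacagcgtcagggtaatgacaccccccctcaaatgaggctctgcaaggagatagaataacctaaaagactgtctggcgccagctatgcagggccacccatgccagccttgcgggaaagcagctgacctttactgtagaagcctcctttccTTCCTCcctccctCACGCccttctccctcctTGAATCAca

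The promoter of Trem2 held matches to 3 of these motifs. A GCGTG on the minus strand lay 27 to 23 bases before the start, a TGANTCA 9 to 3 bases before it and a GAGGAA on the minus strand 40 to 35 bases before it. Lgals3 had a GCGTG 90 to 86 bases before the start, and Spp1 a GAGGAA 113 to 108 bases before its upstream start and no match at the other start. In Gpnmb the match was a TGANTCA 9 to 15 bases after the start, beyond the printed stretch. Neither ACGTG nor the E-box was found at these 4 promoters. Across all 32851 promoters of the table, searched from 250 bases before to 50 bases after the start, ACGTG occurred in 19.6%, GCGTG in 32.4%, CACGTG in 7.15%, TGANTCA in 7.81% and GAGGAA in 28.3%. A match is a string of letters and not a site shown to be bound.

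It was next asked whether other genes of the same program moved with the 8 genes. Of 34 further genes of the lipid-associated state, 33 were tested. Of these, 24 were lower and 9 higher in KO, where 48.7% of all genes had a change below 0. Only 2 passed 3-fold, both lower, against 13.7% of all genes, and the median change was -0.30. Cadm1, which encodes an adhesion molecule, fell from 14.3 to 0.676 FPKM, and Syngr1 fell from 2.03 FPKM to a listed value of 0. When 1 FPKM was required in both libraries, this count was 0. Mmp12, the macrophage elastase, was at 54.3 FPKM in WT against 20.7 in KO, and the tetraspanin gene Cd9 at 42.9 and 18.9, neither past 3-fold.

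Lysosomal genes of this list did not move as one. The cathepsin gene Ctsd was at 1347 FPKM in WT against 808 in KO, and Ctsl at 151 and 84.9. Ctsb, by contrast, was at 1632 and 1718 FPKM, Hexa at 424 and 414 and Lamp1 at 648 and 645. Genes of lipid uptake and storage were likewise mixed. The fatty acid transporter gene Cd36 was at 288 FPKM in WT against 418 in KO, and Plin2, which coats lipid droplets, at 673 and 707. Lipa, the lysosomal lipase, was at 138 and 128 FPKM. The highest gene of the list, Ftl1, a ferritin subunit, was at 10199 and 8264 FPKM.

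Genes that act below TREM2 and DAP12 were mostly at similar levels. Of 20 genes of this pathway 19 were tested, and the median change was -0.03. Only 1 passed 3-fold, where 13.7% of all genes were lower and 13.6% higher. That gene was Hcst, which encodes DAP10, an adaptor that pairs with DAP12 at TREM2. It fell from 171 to 37.5 FPKM, a change of -2.16. Past 2-fold, 3 genes of the pathway were lower and 0 higher, where these shares of all genes were 22.5% and 23.1%. Besides Hcst these were Ptpn6, at 55.5 FPKM in WT against 24.0 in KO, and Vav3, at 17.4 and 8.12. Hcst lies 126 bp from Tyrobp on the opposite strand without overlapping it. Tyrobp stood at 10.5 times the level of its neighbour in WT and at 49.5 times in KO. Syk was at 116 FPKM in WT against 119 in KO, the adaptor gene Grb2 at 125 and 129, Inpp5d, which encodes the inhibitory phosphatase SHIP1, at 84.8 and 108, and the kinase gene Lyn at 72.2 and 89.5.

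Relatives of TREM2 and other receptors that use DAP12 spanned a wide range of levels. Of 12 such genes 9 were tested, with 2 higher, 1 lower and a median change of -0.10, where 13.6% of all genes were higher and 13.7% lower. The 3 genes past 3-fold were low, and among all genes with a mean of 1 to 5 and of 5 to 20 FPKM 54.1% and 26.6% passed 3-fold. Trem1, an amplifier of inflammation on neutrophils and monocytes, rose from 0.941 to 12.8 FPKM, and Siglech, a receptor of plasmacytoid dendritic cells, rose from 1.42 to 8.31 FPKM. Trem3 was at 5.52 FPKM in WT and listed at 0 in KO. Cd300ld was the most abundant, at 213 FPKM in WT against 199 in KO, while Pilrb1 was at 20.4 and 57.1 and Cd300lb at 47.4 and 21.3, none of them past 3-fold. Treml1 and Treml2 were listed at 0 in both libraries. Among 5 genes of candidate ligands, 3 were tested and 0 passed 3-fold, with a median change of 0.30. Apoe, disrupted in both genotypes, was listed at 94.3 FPKM in WT against 117 in KO. The source of these reads was not tested, and the values do not by themselves check the ApoE-/- label. Clu was at 1.36 and 2.57 FPKM and Lgals3bp at 432 and 391.

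The relatives and partners of the lipid-handling genes gave little to compare. Of 8 other fatty acid-binding proteins, 7 were listed at 0 in both libraries, and Fabp3 was at 7.85 FPKM in WT and listed at 0 in KO. Fabp4 and Fabp5 were the carriers listed above 0 in both libraries, and a listed 0 may be a failed estimate. Of 19 lipases and partners of lipoprotein lipase, 11 were tested, with a median change of -0.02. Past 3-fold, 1 was higher and 1 lower, where 13.6% of all genes were higher and 13.7% lower. Lmf1, which encodes a chaperone that lipoprotein lipase needs to mature, rose from 3.62 to 21.6 FPKM. Apoc1 was at 24.0 FPKM in WT and listed at 0 in KO. Angptl4, an inhibitor of the lipase, was at 46.5 and 61.6 FPKM. Of the other galectins 4 of 8 were tested, 0 passed 3-fold, and the median change was 0.03, with Lgals1 at 1015 and 1038 FPKM.

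Receptors for osteopontin were examined beside Spp1. Of 9 such genes 8 were tested, with a median change of -0.46. These 8 were lower in KO, where 48.7% of all genes had a change below 0. Only Itga8 passed 3-fold, from 2.04 FPKM to a listed 0, where 13.7% of all genes were 3-fold lower. When 1 FPKM was required in both libraries, the count of receptors past 3-fold was 0. Cd44 was at 191 FPKM in WT against 181 in KO. Itgb5, the integrin chain next in change, was at 42.9 and 15.5 FPKM, its partner Itgav at 12.0 and 5.18, and Itgb1 at 71.4 and 49.9. Itgb3 was listed at 0 in both libraries.

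Transcription factors tied to this program were compared last. All 18 were tested, with 2 lower, 0 higher and a median change of -0.18, where 13.7% of all genes were lower. The lower genes were Pparg and Nr1h3. Pparg, whose product drives fatty acid uptake genes and Fabp4 in adipocytes and macrophages, fell from 36.4 to 7.78 FPKM, a change of -2.09. Nr1h3, which encodes the oxysterol receptor LXRα, fell from 12.9 to 2.97 FPKM, a change of -1.81. Their relatives did not pass 3-fold, with Ppard at 15.4 and 30.0 FPKM, Rxrb at 7.29 and 14.6 and Nr1h2 at 47.3 and 37.5. Mitf and Tfe3, activators of lysosomal genes, were at 32.2 and 21.1 FPKM and at 81.1 and 67.0 FPKM. Spi1, which encodes PU.1, was at 367 and 301 FPKM.

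**Figure D3:**
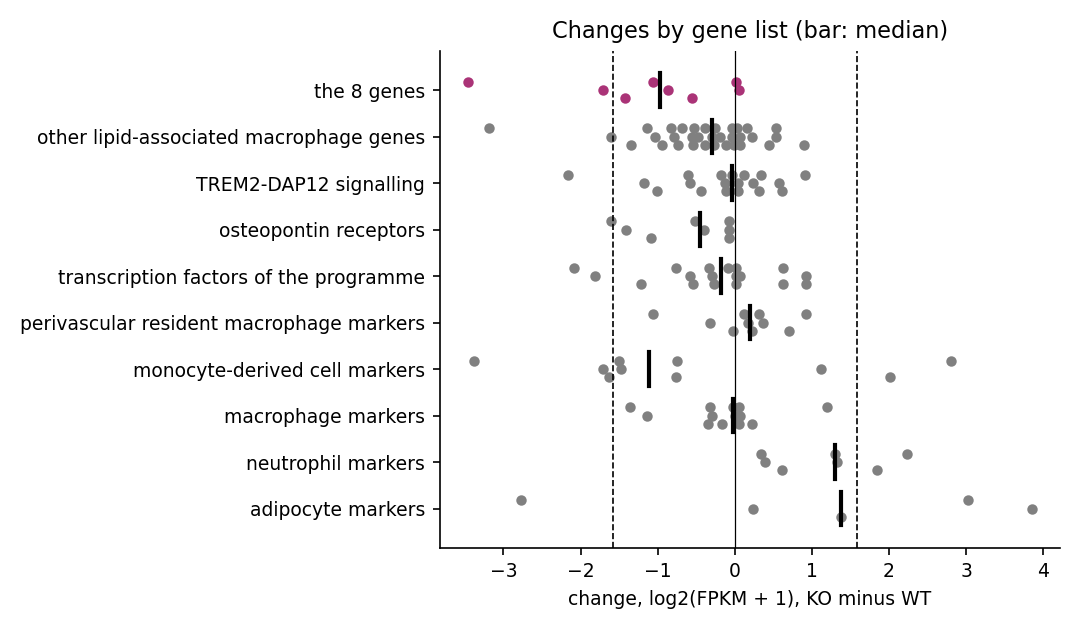
Change in log2(FPKM + 1), KO minus WT (horizontal axis), of every tested gene in 10 lists (rows); each point is a gene, black bars are medians and dashed lines mark 3-fold. The 8 genes have a median of -0.96, the other genes of the program -0.30 and perivascular resident markers 0.20.

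Markers of other ATM states were set beside the 8 genes. Of 10 markers of perivascular resident macrophages, 0 passed 3-fold, and the median change was 0.20. Most had means above 100 FPKM, and among genes at 100 to 1000 FPKM only 1.99% passed 3-fold. In KO 7 of the markers were higher and 3 lower, where 48.7% of all genes had a change below 0. Lyve1, a hyaluronan receptor, was at 240 FPKM in WT against 453 in KO, Cd163, a scavenger receptor for haemoglobin, at 130 and 214, and Folr2 at 1712 and 1860. Timd4, a receptor for phosphatidylserine and the 1 marker of the list past 2-fold, lay the other way, at 53.4 FPKM in WT against 25.1 in KO. Lyve1 had the largest rise of the list. It stood at 1.05 times the level of Trem2 in WT and at 2.93 times in KO, a ratio that does not speak for the other markers. Of 10 markers of monocyte-derived cells, 3 were lower and 2 higher, with a median change of -1.11, where 13.7% of all genes were lower and 13.6% higher. When 1 FPKM was required in both libraries, 1 was lower and the median was -0.76, and with 3-fold taken on the FPKM ratio 5 were lower. Ly6c2 was at 9.39 FPKM in WT and listed at 0 in KO, and Cx3cr1 fell from 12.1 to 2.99 FPKM. Plac8 rose from 1.58 to 17.0 FPKM. The difference between these lists was not tested, since genes are not replicates.

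Macrophage markers were abundant in both libraries, with a summed level of 16577 FPKM in WT against 15803 in KO. Of 14 such markers 13 were tested, and the median change was -0.02. Past 3-fold there were 0, where 13.7% of all genes were lower and 13.6% higher. Past 2-fold, Aif1 (205 FPKM in WT and 79.3 in KO) and Fcgr1 (49.3 and 21.9) were lower and Mertk (38.0 and 88.1) was higher. The targeted gene, Hif1a, was at 30.4 FPKM in WT against 21.0 in KO, which is not past 2-fold, and the floxed exon was not analysed here. Since adipocytes and capillary endothelium also make Fabp4 and Lpl, their markers were examined. Of 13 adipocyte markers, 8 were listed at 0 in both libraries, Adipoq and Plin1 among them, and the list summed to 22.6 FPKM in WT against 42.2 in KO. Of these, 5 were tested, with a median change of 1.38. Past 3-fold, 2 were higher (Cfd and Car3) and 1 lower (Cidec), where 13.6% of all genes were higher and 13.7% lower. Cfd, Car3 and Cidec are each listed at 0 in 1 library. When 1 FPKM was required in both, only Lipe was left, at 16.8 FPKM in WT against 20.1 in KO. The median was then its change of 0.24, with 0 genes past 3-fold. Of 11 endothelial markers, 6 were tested and 1 was lower, as were 13.7% of all genes. This list summed to 22.1 FPKM in WT and 22.6 in KO, with a median change of 0.16 and Gpihbp1 listed at 0 in both. The part of these cells in the levels of Fabp4 and Lpl was not tested.

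Neutrophil markers were examined in the same way. Of 11 such markers, 7 were tested, 2 were 3-fold higher, as were 13.6% of all genes, and all 7 were at a higher value in KO. Their median change was 1.30, which became 0.61, with 1 gene past 3-fold, when 1 FPKM was required in both libraries, and 0.50 with no filter. The summed level was 197 FPKM in WT against 570 in KO. S100a9 rose from 63.4 to 301 FPKM, Ngp was at 2.61 FPKM in KO and listed at 0 in WT, and Camp, Ltf and Mmp8 were listed at 0 in both. The part of these cells in the levels of the 8 genes was not tested. The remaining lists were low or mixed. The summed level in WT and KO was 59.7 and 101 FPKM for 10 fibroblast markers (9 tested, 2 higher, 1 lower). For 8 dendritic cell markers it was 168 and 170 (5 tested, 1 higher), and for 9 T cell markers 35.3 and 31.4 (3 tested, 1 lower). It was 0 and 7.84 for 8 mesothelial markers (1 tested, 1 higher). For 6 B cell markers it was 2.75 and 6.46 (2 tested, 1 higher), and for 6 eosinophil markers 6.50 and 33.1 (2 tested, 2 higher). Past 3-fold, 13.6% of all genes were higher and 13.7% lower.

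The genes nearest to Trem2 in both libraries were Pea15a at 227 FPKM in WT against 152 in KO, Nedd8 at 219 and 151, and Jpt1 at 216 and 158. Their distances from Trem2 were 0.0270, 0.0682 and 0.0831 in the plane of the log2(FPKM + 1) values. With 2 libraries this places genes by level and change only.

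Annotated sequences that could share reads with the 8 genes were searched for, since a stretch of near-identical sequence lets reads be assigned to either copy. Fabp5 had 5 processed pseudogenes with an identity of 93.6% to 98.3% over 336 to 409 nt, and none was listed in the deposited table, so its level is the least certain in this respect. The other 7 genes had no copy of at least 90% identity over 200 nt. The 1 annotated gene that overlaps any of them, an unclassified model within Spp1, was not listed in the table either.

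**Figure D4:**
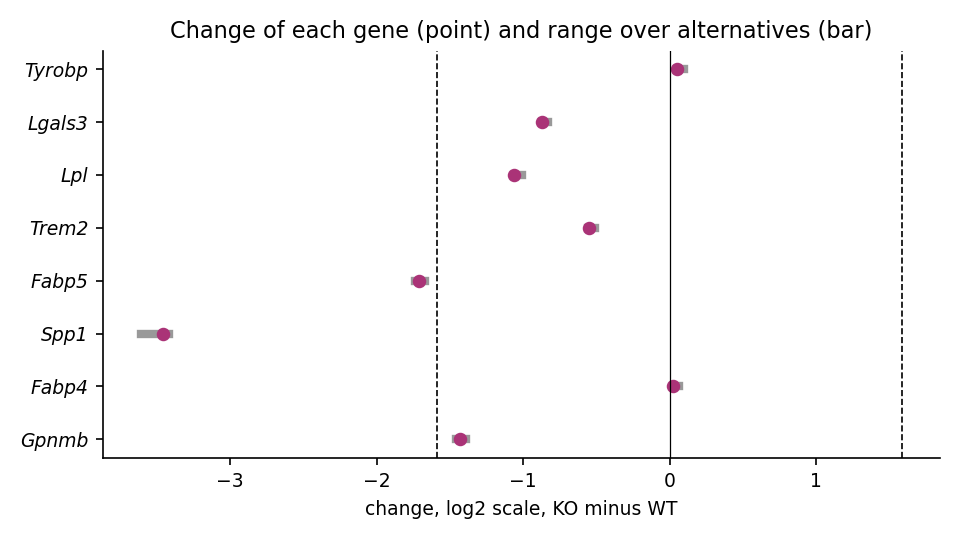
Change of each of the 8 genes, KO minus WT on the log2 scale (points), with grey bars for the range over 11 other ways of processing the table and dashed lines at 3-fold. Spp1 ranges from -3.61 to -3.42 and Fabp5 from -1.74 to -1.67, and the bar of no gene crosses a dashed line or 0.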

How the data were processed

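RNA of sorted ATM was sequenced from 1 WT and 1 KO library. The authors deposited 1 table of FPKM values per gene. The submitters' processing notes name CASAVA 1.8.2, TopHat2 2.0.9, Cufflinks 2.2.1 and mm9, with other settings not given in the sources used here. The mutant column was assigned to KO because every other library is WT. Repeated identifiers left 20330 of 20749 rows. Coordinates and lengths are from GENCODE M21 (GRCm38), not the authors' build.

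Changes were log2(FPKM + 1), KO minus WT, over genes reaching 1 FPKM in either library, with a threshold of 3-fold; the pseudocount understates changes of low genes. A value of 0 may be a failed estimate, and no fold is given for it. FPKM are not counts, so no count model was used. The calling rule was run on simulated data with large planted changes in well-expressed genes and little noise. This does not measure the error of the calls in these data. Near copies were found with blastn 2.17.0, and tables handled with pandas 2.3.3.

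The 8 genes, lists and alternatives were chosen with earlier results of these data known. All 8 are named. From each pathway list, the rule named up to 4 genes past the threshold, any of them listed at 0 in 1 library and the 4 most abundant others. Further genes, markers of other cells among them, were chosen after their values were seen. Alternatives were other pseudocounts, filters, thresholds and scalings, and another treatment of repeated identifiers.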

Additional observations from a re-analysis of the deposited data

How the results depend on the processing

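The median change of the 8 genes lay between -0.97 and -0.92 over the 11 alternatives, and 0 of them was higher past the threshold in any. The number lower past the threshold was 2 in all but the 2-fold threshold, where it was 4 by construction. Each of the 8 kept its sign and moved by less than 1.5-fold, and only the other pseudocounts and scalings could alter them. Of 238 altered values of other lists and of all genes, 144 stayed within 1.5-fold and 94 moved further. The share of all genes 3-fold lower in KO was 5.89% when 1 FPKM was required in both libraries and 6.95% with no filter. Medians took either sign in 4 lists, TREM2 and DAP12 signalling (-0.074 to 0.016), lipoprotein lipase partners (-0.016 to 0.035), macrophage markers (-0.019 to 0.024) and T cell markers (-1.36 to 0.30). No paired analysis was possible because WT and KO have a single library each. No value has a replicate. Depth limits low genes, and 54.1% of genes at 1 to 5 FPKM passed 3-fold, against 1.99% at 100 to 1000 FPKM.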
